A study of Mus musculus with 6 samples.

Results

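The Wnt pathway was followed through 10 genes, the ligands Wnt5b and Wnt10b, the receptor Fzd9, the co-receptors Lrp5 and Lrp6, the scaffolds Axin1 and Axin2, the transducer Ctnnb1 and the nuclear factors Lef1 and Tcf7l2. They were matched on the arrays by RefSeq accession or symbol, which gave 14 probes, of 20667 named genes and 55681 probes in all. The data came from 6 single-colour arrays, 1 for each combination of Satb1-null or wild type genotype with 3 blood progenitor populations sorted from the fetal liver of C57BL6/J mouse embryos at stage E18.5. The wild type animals were littermates of the null ones. Satb1 is a chromatin-organizing protein, and the question asked was which genes change when it is missing. The HSC-enriched population (hematopoietic stem cells) was sorted as lineage-negative, c-kit high, Sca-1 positive and Flt3 negative. The LMPP-enriched population (lymphoid-primed multipotent progenitors) differed by being Flt3 positive, and the CLP-enriched population (common lymphoid progenitors) was c-kit low, Sca-1 low and IL7R alpha positive. The labels call the allele null without describing it, and do not say how many embryos each array pools. With 1 array per group the spread between replicates is unknown, and a difference between 2 arrays compares those arrays, not the conditions.

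Wnt ligands bind a Frizzled receptor together with Lrp5 or Lrp6 at the cell surface. Without a ligand, a destruction complex built on Axin1 or Axin2 marks beta-catenin, the product of Ctnnb1, for degradation. With a ligand, beta-catenin accumulates, enters the nucleus and joins the DNA-binding factors Lef1, Tcf7, Tcf7l1 and Tcf7l2. Axin2 is itself switched on by this signal in many tissues and is widely read as its target. In blood, the pathway has been studied for its part in stem cell maintenance and in lymphocyte development.

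The DNA core that the Lef1 and Tcf family recognises, CTTTGA or its reverse complement TCAAAG, was searched in the 250 bases before each annotated start. The promoter sequences (RefSeq, build GRCm38.p6) covered 7 of the members with 14 start windows, and 2 of these windows held the core, against 13.8% of 32851 windows of all genes. Both are printed below beside the Axin2 window, the best known target, which holds none. Each runs 5′ to 3′ along the gene's strand and ends at the base before the start, with the core in capitals.
Wnt5b, chr6:119449387-119449636, minus strand: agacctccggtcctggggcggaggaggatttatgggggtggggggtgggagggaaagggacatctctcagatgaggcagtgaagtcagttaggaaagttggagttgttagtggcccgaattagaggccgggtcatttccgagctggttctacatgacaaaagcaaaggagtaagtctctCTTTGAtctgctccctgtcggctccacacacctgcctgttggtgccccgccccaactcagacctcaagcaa
Lef1, chr3:131156044-131156293, plus strand: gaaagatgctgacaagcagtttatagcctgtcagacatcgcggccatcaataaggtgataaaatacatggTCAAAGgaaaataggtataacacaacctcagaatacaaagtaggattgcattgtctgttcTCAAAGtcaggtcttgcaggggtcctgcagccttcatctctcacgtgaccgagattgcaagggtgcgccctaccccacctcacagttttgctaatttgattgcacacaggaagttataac
Axin2, chr11:108920099-108920348, plus strand: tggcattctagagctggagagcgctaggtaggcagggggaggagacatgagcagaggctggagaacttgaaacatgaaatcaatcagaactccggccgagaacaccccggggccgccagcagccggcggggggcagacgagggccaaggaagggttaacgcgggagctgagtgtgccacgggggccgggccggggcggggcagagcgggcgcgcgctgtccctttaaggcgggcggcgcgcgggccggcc
The core began 71 bases before this start of Wnt5b, and 180 and 120 bases before this start of Lef1. Both genes have other annotated starts whose windows hold no core. A match of letters is a description and not evidence of binding.

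Levels are log2 intensities set against the 75th percentile of the same array's spots, so 0 is that percentile. A signal counted as measured where the scanner software called it well above background, and the lowest such signals lay between -4.19 and -3.99 on the 6 arrays. On each array 52.4 to 57.7% of the spots were well above background. Errors given below are the scanner's own error estimate and leave out biological and amplification error. A difference was counted as called past 2-fold, which is 1 on the log2 scale.

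The labels were first set against the arrays. The single Satb1 probe read -0.59 in HSC, 1.96 in LMPP and 0.65 in CLP on the arrays labelled Satb1-null, against -0.03, 2.0 and 0.71 on those labelled wild type. It shows no loss of the Satb1 transcript, and whether it lies in the disrupted part of the gene was not analysed here, so the genotype names below stand for the labels. Xist, the RNA of the inactive X chromosome, read 1.63 to 2.22 on the 3 null arrays by one probe and was not well above background on the wild type arrays. Y-linked Ddx3y was lower on every null array, at -2.44 to -1.60, against -0.63 to 0.44 on the wild type arrays. Y-linked Uty, by the probe A_52_P345539, went the other way in CLP, at -2.73 in null and -3.11 in wild type, while its other probe was lower on every null array. Slide row also went with genotype, so genotype, slide row and the sex of the pools cannot be told apart. Among the sort markers, Il7r read 1.55 in null CLP and 1.61 in wild type CLP, and 0.12 or lower elsewhere. Flt3 was highest on the LMPP arrays by each of its probes. Kit read 3.74 in null CLP and 2.79 in wild type CLP, against 4.38 to 4.63 elsewhere. Ly6a, the gene of Sca-1, did not set the CLP arrays clearly apart. It read -0.50 in null CLP and 0.21 in wild type CLP, against 0.14 to 1.12 elsewhere. Summed linear levels of 8 measured erythroid markers were 774 in null CLP and 720 in wild type CLP, against 18.4 to 96.7 on the other arrays, so both CLP arrays carried erythroid RNA. In sorted pools, fewer cells of a type and less RNA per cell cannot be told apart.

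The ligand Wnt5b, which mostly acts outside the beta-catenin branch, varied most among the members between the genotypes of the HSC arrays. It read -3.47 in null HSC, against 0.17 in wild type HSC. In LMPP it read 2.0 on the null array, against 0.62 on the wild type array. In CLP the null array, at -4.35, was not well above background, against -2.14 on the wild type array. The null array was therefore the lower one in HSC and CLP and the higher one in LMPP. The difference was -3.64 in HSC (12.4-fold lower, scanner error 0.32). Of the 34148 probes compared in HSC, 0.114% were as low or lower. In LMPP it was 1.37 (2.59-fold higher, scanner error 0.20), and in CLP Wnt5b was at least 4.12-fold lower in the null array. Under normexp background correction with quantile normalization, a model-based background step that was run as an alternative, the HSC difference was -1.81 and the CLP difference -0.60, which is under 2-fold. That alternative left fewer probes of any kind past 2-fold, 4.31% of all compared in HSC and 6.46% in CLP.

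Wnt10b, a ligand of the beta-catenin branch, was dim on every array. Its levels were -1.83, -1.66 and -2.53 in null HSC, LMPP and CLP, against -1.49, -2.57 and -1.61 in the wild type populations. The 3 differences were -0.34, 0.90 and -0.91, all under 2-fold, and 4 of the 5 gaps between neighbours in the order of its levels were within the scanner error.

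Fzd9, a Frizzled receptor, was alike between genotypes in HSC and LMPP and far apart in CLP. It read 0.47 in null HSC, 1.92 in null LMPP and 0.40 in null CLP, against 0.65, 1.74 and -3.57 in the wild type populations. The wild type CLP array stood alone at the bottom and the other 5 lay within 1.52 of each other. Null minus wild type, the differences were -0.18 (HSC), 0.19 (LMPP) and 3.97 (CLP, 15.7-fold higher, scanner error 0.29). In CLP, 48 probes, or 0.148% of those compared, were as high or higher. Under normexp the CLP difference was 2.04. Its range over the 6 arrays, 5.49, exceeded that of 99.8% of the probes measured on all of them.

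Lrp5, a co-receptor, differed little. It read 1.12, 1.69 and 0.78 in null HSC, LMPP and CLP, against 1.44, 1.20 and 0.93 in wild type. The differences were -0.32, 0.49 and -0.16, none past 2-fold.

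Lrp6, the other co-receptor, had a pair of probes matched to the same transcript, and they disagreed. The probe A_55_P2041360 read 1.76, 1.22 and -0.33 in null HSC, LMPP and CLP, against 1.54, 0.91 and 1.09 in wild type. The probe A_55_P2118391 read 0.75, 0.96 and 2.06 in null HSC, LMPP and CLP, against 1.75, 1.96 and -0.10 in wild type. The direction of the genotype difference was opposite between the probes in each of the 3 populations. In CLP the first gave -1.42 (2.67-fold lower) and the second 2.16 (4.48-fold higher), so no direction can be given for Lrp6. The second probe's differences of -1.0 in HSC and in LMPP sat at the 2-fold threshold, at 2.01-fold and 2.0-fold lower in the null arrays.

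Among the destruction complex scaffolds, Axin1 had a null level above wild type in each population. It read 3.34, 3.82 and 3.45 in null HSC, LMPP and CLP, against 2.92, 3.55 and 2.92 in wild type. The differences of 0.41, 0.28 and 0.53 were beyond the scanner error of 0.20 but under 2-fold.

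Axin2, the pathway's own target, was well above background only in null CLP, by both of its probes. The probe A_66_P134405 read -1.47 in null CLP, against -5.74 in wild type CLP, and -5.41 to -4.10 on the other 4 arrays. The probe A_55_P2000783 read -3.45 in null CLP, against -6.14 in wild type CLP. These are low signals, 83.3 and 21.0 intensity units in null CLP, against 3.40 and 2.58 in wild type CLP. Axin2 was at least 6.33-fold higher in null CLP by the first probe and at least 1.60-fold by the second, whose scanner error of 1.47 is larger than its bound of 0.68. Under normexp the first probe's difference was 0.96, which is under 2-fold.

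Ctnnb1, which encodes beta-catenin, was among the steady members. It read 5.61, 5.53 and 5.32 in null HSC, LMPP and CLP, against 5.55, 5.76 and 5.03 in wild type. The differences were 0.06, -0.23 and 0.29. Its range over the arrays was 0.74, against a median of 1.14 over all probes measured on every array, and 23.0% of those had a smaller range.

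Of the nuclear factors, Lef1, with a single probe, stayed under detection on all 6 arrays, so no difference can be given. Tcf7l2 had 3 probes annotated to different transcripts, of which A_55_P2260094 likewise stayed under detection throughout. The probe A_55_P2030160 read 0.78, 1.52 and 0.78 in null HSC, LMPP and CLP, against 0.73, 1.29 and -1.25 in wild type. The probe A_55_P2143724 read 2.42, 2.40 and 1.71 in null HSC, LMPP and CLP, against 2.44, 2.74 and 0.99 in wild type. By both probes wild type CLP was the lowest array. The CLP difference was 2.03 (4.08-fold higher in null, scanner error 0.21) by the first and 0.71 (1.64-fold) by the second, and in HSC and LMPP neither passed 2-fold. Under normexp the first probe's CLP difference was 1.42.

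**Figure D1:**
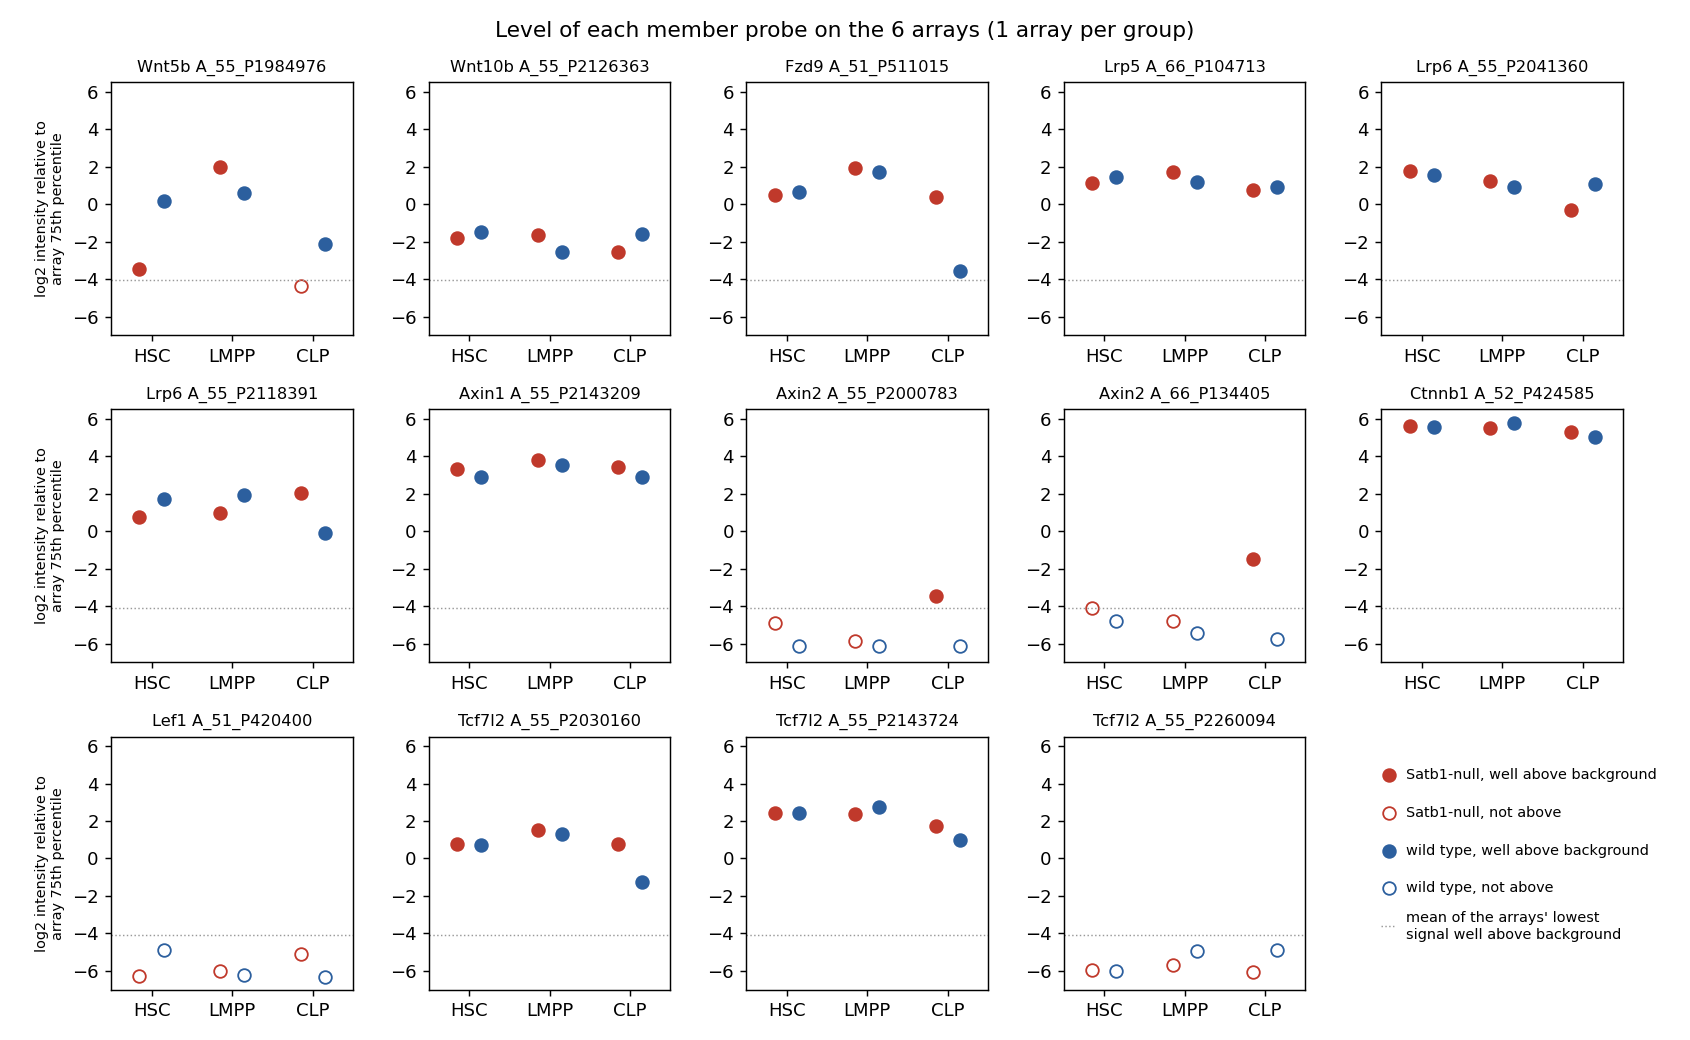
Level of each of the 14 member probes (log2 intensity relative to the array's 75th percentile, vertical axis) in HSC, LMPP and CLP, with the Satb1-null array in red left of the wild type array in blue. Open circles were not well above background, and the dotted line is the mean of the arrays' lowest signals well above background. Fzd9 at -3.57 in wild type CLP and the Axin2 probes, filled only in null CLP, stand out.

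Counted together, 2 of 10 compared member probes were past 2-fold between the HSC arrays, both lower in null, where 18.6% of all compared probes were past 2-fold (7.88% higher and 10.7% lower). Between the LMPP arrays, 1 was higher and 1 lower of 10, against 13% of all probes (7.12% higher and 5.92% lower). Between the CLP arrays, 4 were higher and 2 lower of 12, against 23.3% (12.5% higher and 10.8% lower). The 4 higher probes were those of Fzd9, Axin2, Tcf7l2 and Lrp6, and the lower ones were of Wnt5b and Lrp6. The members' median difference was -0.10 in HSC, against 0.00 over all probes. It was 0.26 in LMPP, against -0.07, and 0.60 in CLP, against -0.02. The shares in HSC and LMPP are near the background. The CLP share is over few probes, and Lrp6, Tcf7l2 and Axin2 each gave more than 1 of them. Both Axin2 probes were well above background only in null CLP. They were therefore compared only in CLP and could only enter as higher in null, and the CLP median of 0.60 includes them.

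**Figure D2:**
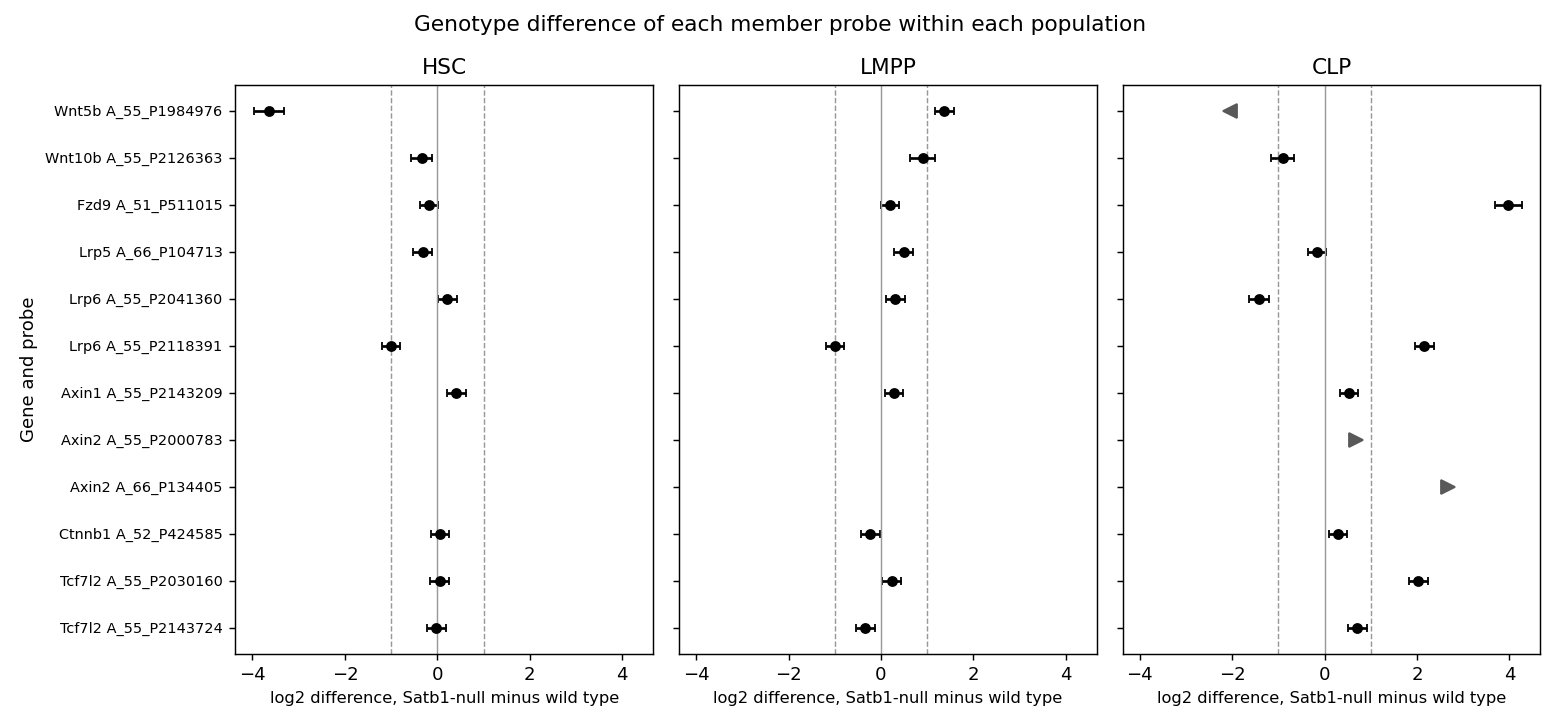
Satb1-null minus wild type difference (log2, horizontal axis) of each member probe compared in HSC, LMPP and CLP. Bars are the scanner error, triangles are bounds where 1 array was not well above background, and dashed lines mark 2-fold. Wnt5b lies at -3.64 in HSC and Fzd9 at 3.97 in CLP.

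The 6 arrays allow 1 test, in which genotype and population act additively, with 2 residual degrees of freedom. Across the 30570 probes well above background on at least 3 arrays, limma with Benjamini-Hochberg adjustment called 4 probes between genotypes, of which 2 were Xist and 2 had no gene name. None of the 10 member probes in the fit was called between genotypes, where 0.0131% of all probes were, nor at an unadjusted p under 0.05, where 6.21% were. The member with the smallest p was Axin1, at 0.41 with a standard error of 0.20 (adjusted p = 0.77, limma). Fzd9 was at 1.32 with a standard error of 0.92 and Wnt5b at -1.43 with a standard error of 1.01, with the null CLP value of Wnt5b raised to the detection floor. Leaving out 1 array in turn moved Fzd9 over 0.0 to 2.08 and Wnt5b over -2.84 to -0.33. The additive model takes the genotype difference to be the same in all 3 populations, which the values of Fzd9 and Wnt5b above were not. With so few residual degrees of freedom, a member that was not called is not shown to be unchanged, and in simulated data with the arrays' own spread the fit called none of the genotype changes put in.

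Between populations, 5 of the 10 member probes compared were past 2-fold lower in CLP than in LMPP on the wild type arrays. Fzd9 was lower by 5.30 on the log2 scale in wild type CLP than in wild type LMPP (39.5-fold), and Wnt5b, both measured Tcf7l2 probes and 1 Lrp6 probe were the others. The Fzd9 fold rests on the low wild type CLP signal of 15.4 intensity units. Wnt10b differed by 0.95 and the other Lrp6 probe by 0.18, both above 0. None was past 2-fold higher, against 31.8% of all probes past 2-fold (13.6% higher and 18.2% lower). On the null arrays CLP minus LMPP gave 2 higher and 3 lower of 12, against 30.1% (13.7% higher and 16.4% lower). There Fzd9 differed by -1.52 and Wnt5b was at least 72.8-fold lower in CLP. For CLP minus HSC, 0 were higher and 5 lower of 10 on the wild type arrays, against 34.3% (14.4% higher and 19.9% lower). On the null arrays 2 were higher and 1 lower of 12, against 29.4% (13.3% higher and 16.1% lower). For LMPP minus HSC, the null arrays gave 2 higher and 0 lower of 10, against 18.3% (8.54% higher and 9.75% lower), with Wnt5b 44.2-fold higher in LMPP. The Wnt5b fold rests on the low null HSC signal of 19.1 intensity units. The wild type arrays gave 1 higher, Fzd9 at 1.08, and 1 lower, Wnt10b at -1.08, of 10, against 17.4% (6.49% higher and 10.9% lower). These comparisons share arrays with one another and with the genotype comparisons. In those on the null arrays that include CLP, both Axin2 probes entered only through null CLP, so they could only be higher in CLP.

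Wild type CLP was the lowest array for 6 of the 9 member probes measured on all 6 arrays, while it was lowest for 23.4% of all 23968 such probes. Null CLP was lowest for 2 of the 9, and for 23.5% of all such probes. The 6 probes include both of Tcf7l2, and Axin1, whose wild type CLP level lay 0.01 below wild type HSC, within the scanner error of 0.20.

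In the additive fit with limma and Benjamini-Hochberg adjustment, no member was called between populations. For CLP minus LMPP, where 2.94% of probes were called, Wnt5b was at -4.48 with a standard error of 1.24 (adjusted p = 0.14, 1 of 6 arrays raised to the floor). Fzd9 was at -3.41 with a standard error of 1.12 (adjusted p = 0.178). The Tcf7l2 probes were at -1.22 (A_55_P2143724, adjusted p = 0.148) and -1.64 (A_55_P2030160, adjusted p = 0.196). In this comparison 4 of the 10 member probes had an unadjusted p under 0.05, against 23.2% of all probes. For CLP minus HSC 1 member probe did, against 23.7% of all probes, namely Tcf7l2 A_55_P2143724 at -1.08 (adjusted p = 0.173), and 2.25% of all probes were called. For LMPP minus HSC, 0 of the 30570 probes were called at an adjusted p under 0.05 and 7.92% had an unadjusted p under 0.05, none of them a member.

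Genes with the most similar pattern over the 6 arrays were looked up for the member probes well above background on all 6 arrays with a range of at least 1 on the log2 scale, which leaves out Wnt5b and Axin2. The search ran over 6486 genes, and these correlations are descriptions over 6 arrays. The gene nearest to Tcf7l2 (A_55_P2030160) was Fzd9, with r = 0.997, followed by Sigirr (0.997) and B3gnt5 (0.996). For Fzd9 they were Pdlim2 (0.997), Tigd2 (0.995) and Dnd1 (0.995). All of these genes were lowest in wild type CLP. An r above 0.95 was reached by 148 genes with Fzd9 and by 134 genes with this Tcf7l2 probe. Without the wild type CLP array, a choice made after seeing the data, r between Tcf7l2 and Fzd9 was 0.975 over 5 arrays. That was below its r with Sigirr (0.991) and B3gnt5 (0.986) over the same 5 arrays, so Fzd9 was no longer the nearest of these genes. The nearest to Wnt10b was Aplnr (0.952). For Lrp6 the nearest was Ppic (0.996) by A_55_P2041360 and Itpa (0.972) by A_55_P2118391. For Tcf7l2 A_55_P2143724 it was Fam185a (0.999).

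The members were set in a wider list of 104 pathway genes with 136 probes, of which 28 were detected on none of the arrays. Leaving out the 10 members, 7 probes were higher and 9 lower of 86 compared in HSC, which is 18.6%, as over all probes. In LMPP 10 were higher and 4 lower of 77 (18.2%, against 13%), and in CLP 16 higher and 6 lower of 80 (27.5%, against 23.3%). Of the pathway lists, the receptors and co-receptors differed most between the CLP arrays. There 8 of 15 probes, members included, were higher in null and 1 lower, with a median of 1.38. Lrp6 is counted both ways, at -1.42 as the lower probe and at 2.16 among the higher ones, which also include Fzd9. Of all probes 12.5% were higher and 10.8% lower, with a median of -0.02. Of the 18 receptor probes measured on any array, 8 were not well above background in wild type CLP and 4 in null CLP. Some of the differences are therefore bounds that enter through the null array. Under normexp, 4 receptor probes were higher and 1 lower, with a median of 0.35, where 6.46% of all probes were past 2-fold. Among the Frizzled receptors, Fzd7 read -0.51 in null CLP, against -2.83 in wild type CLP, a difference of 2.32. Among the ligand probes in CLP, 0 of 11 were higher and 4 lower, with a median of -0.59. Over all probes, 12.5% were higher and 10.8% lower. Of the lower ligand probes, those of Wnt2b, Wnt4 and Wnt5b were bounds, since null CLP was not well above background. Under normexp 1 ligand probe was lower, where 6.46% of all probes were past 2-fold either way.

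**Figure D3:**
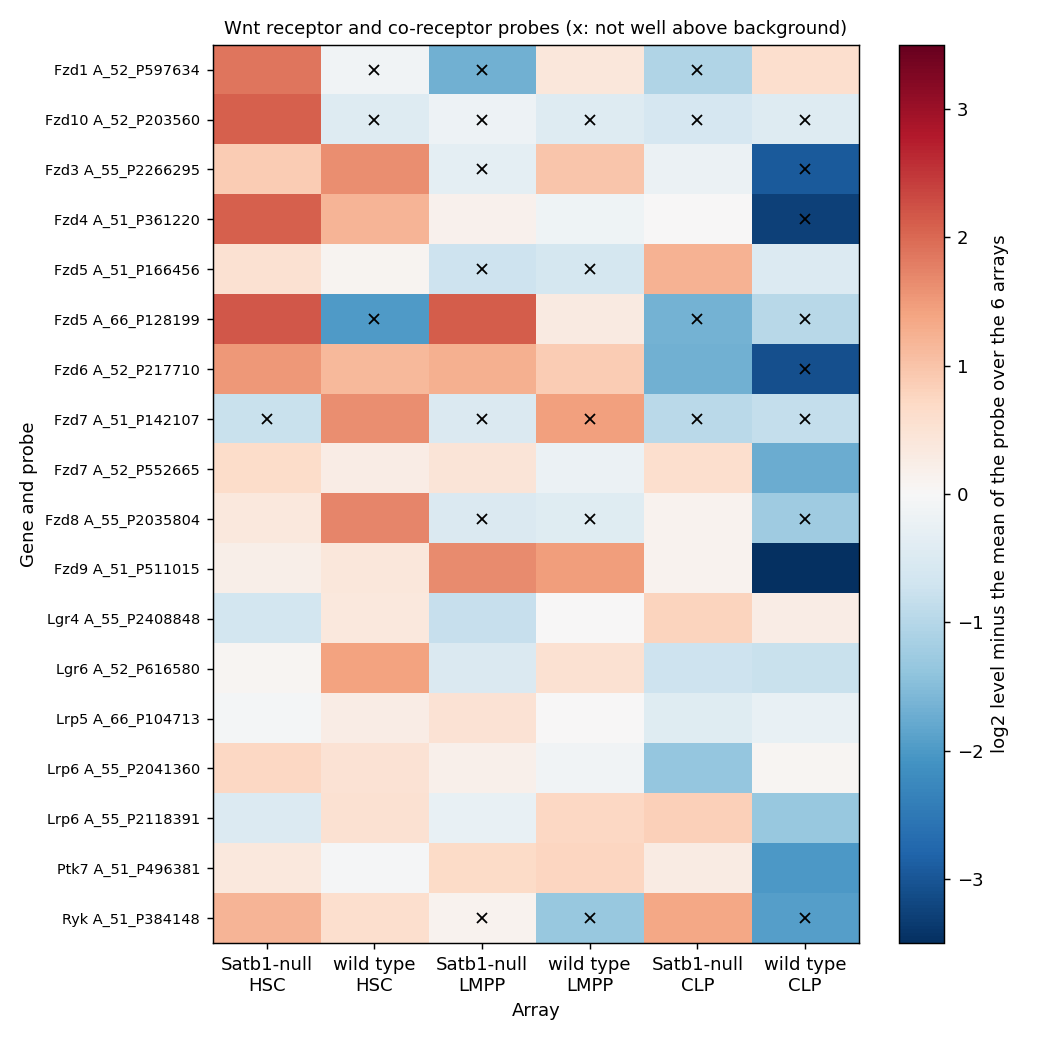
Log2 level of the 18 Wnt receptor and co-receptor probes minus each probe's own mean over the 6 arrays (colour), with each Satb1-null array left of the wild type array of its population. Crosses mark signals not well above background. In null CLP 4 of the 18 probes were not well above background, and in wild type CLP 8. Of the 8 probes measured on all 6 arrays, wild type CLP was the lowest array for 5 and null CLP for 2.

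Other pathway genes with the largest measured differences were spread over the roles. In HSC they were the co-repressor Tle1 (1.46), the adhesion receptor and target Cd44 (-1.41) and the R-spondin receptor Lgr6 (-1.35). In LMPP they were the secreted inhibitor Sfrp2 (2.26), the receptor Fzd5 (1.81), Btrc, the ubiquitin ligase subunit that recognises beta-catenin (1.72), and the beta-catenin co-activator Bcl9l (-1.72). In CLP they were Tnfrsf19, a target (3.31), Ctnnbip1, an inhibitor that binds beta-catenin (3.22), and Fzd7. Tnfrsf19 read 0.28 in null CLP, against -3.03 in wild type CLP, and Ctnnbip1 read 0.19 in null CLP, against -3.03 in wild type CLP. Another Tnfrsf19 probe did not follow, at -3.34 in null CLP, against -2.86 in wild type CLP. Other probes of the same genes stayed under 2-fold for Tle1 in HSC (0.39 and 0.41), Cd44 in HSC (-0.41 to 0.44) and Btrc in LMPP (0.01). No other probe of Fzd5 in LMPP or Fzd7 in CLP was compared. The mean over all probes of the gene gave smaller differences, 0.85 for Fzd5 in LMPP, under 2-fold, and 1.11 for Fzd7 in CLP. Under normexp the HSC differences were under 2-fold, at 0.53 for Tle1, -0.86 for Cd44 and -0.74 for Lgr6. In LMPP Fzd5 (0.67), Btrc (0.89) and Bcl9l (-0.86) were under 2-fold too, and Sfrp2 was at 1.12. In CLP Tnfrsf19 was at 1.85, Ctnnbip1 at 1.52 and Fzd7 at 1.24. The list of nuclear effectors had 5 higher and 0 lower of 20 in CLP, against 12.5% higher and 10.8% lower of all probes, with a median of 0.47 against -0.02. With the brightest probe per gene it had 1 higher of 15 genes, and with median centring 4 higher and 1 lower of 20. The list of target genes had 2 higher and 1 lower of 19, one of the higher ones Axin2, with a median of -0.01.

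In the fit, 2 of 87 pathway probes were called for CLP minus LMPP (2.3%, against 2.94% of all probes). For CLP minus HSC 1 of 87 was called (1.15%, against 2.25%), so neither share was above the background. Fzd6 was lower by 3.43 on the log2 scale in CLP than in LMPP (adjusted p = 0.0378, limma with Benjamini-Hochberg adjustment), reading -2.75 in null CLP and not well above background in wild type CLP. It was also lower in CLP than in HSC, at -3.69 (adjusted p = 0.0399, limma). Tcf7, the family member best known in T lymphocytes, was higher by 2.65 in CLP than in LMPP (adjusted p = 0.0494, limma), with 0.72 in null CLP and 0.10 in wild type CLP, against -1.94 in null LMPP and -2.55 in wild type LMPP. None of these calls held when any 1 of the 6 arrays was left out, where limma called 0 of all probes between populations or genotypes. An unadjusted p under 0.05 was then reached by 3968 to 7046 probes for CLP minus HSC, 4134 to 6793 for CLP minus LMPP, 1410 to 2976 for LMPP minus HSC and 1302 to 2063 between genotypes. For CLP minus LMPP the adjusted p then lay between 0.072 and 0.258 for Fzd6 and between 0.0985 and 0.281 for Tcf7, with the direction kept. For CLP minus HSC it lay between 0.0776 and 0.227 for Fzd6.

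**Figure D4:**
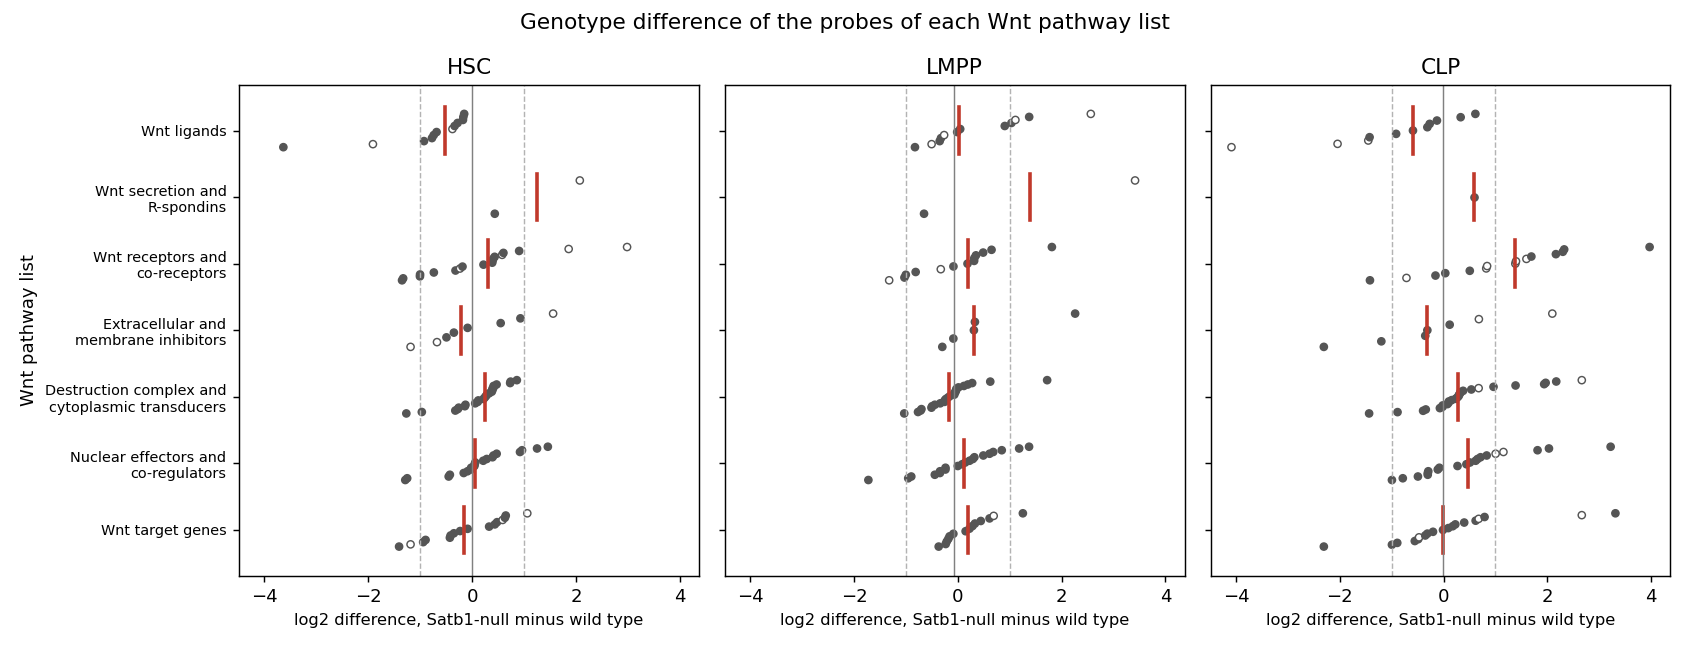
Satb1-null minus wild type difference (log2, horizontal axis) of each compared probe in 7 Wnt pathway lists, in HSC, LMPP and CLP. Open circles are bounds, red bars are list medians, grey lines the median of all probes and dashed lines 2-fold. The receptor median in CLP is 1.38.

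Some marker lists of other cell types differed between the genotypes in each population, while others lay close. In HSC the macrophage markers summed on the linear scale to 0.623 in null and 0.611 in wild type. In LMPP the endothelial and stromal markers summed to 6.5 in null and 5.88 in wild type. In CLP the erythroid markers summed to 774 in null and 720 in wild type. In HSC, where Wnt5b was lower, the B lineage markers summed on the linear scale to 4.74 in null and 0.998 in wild type, and the erythroid markers to 45.8 in null and 18.4 in wild type. In LMPP, where Wnt5b and Sfrp2 were higher, the erythroid markers summed to 96.7 in null and 20.4 in wild type. The megakaryocyte markers there summed to 20.8 in null and 7.98 in wild type, and the macrophage markers to 2.03 in null and 0.482 in wild type. The CLP arrays differed as well. The summed linear level of the megakaryocyte markers was 32.8 in null CLP and 52.2 in wild type CLP. The B lineage markers summed to 19.5 in null CLP and 11 in wild type CLP, and the macrophage markers to 13.1 in null CLP and 8.03 in wild type CLP. The endothelial and stromal markers summed to 7.46 in null CLP and 15.3 in wild type CLP. A sum does not stand for every gene of its list. In CLP, 3 of 9 endothelial and stromal probes were past 2-fold higher in null and 4 lower. Of 8 macrophage probes, 3 were higher and 2 lower. The B lineage list had 4 higher and 0 lower of 11, and the megakaryocyte list 0 higher and 2 lower of 10. Of the B lineage list, 10 of 10 genes were well above background in null CLP and 9 of 10 in wild type CLP. The part of these markers in the differences of Wnt5b, Sfrp2, Fzd9, Tcf7l2 and Axin2 was not tested.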

How the data were processed

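Total RNA (6.1 ng per sample, per the labels' protocols) was amplified, labelled with Cy3 and hybridised to 1 array per group. The authors deposited scanner files with linear spot intensity, made with Agilent Feature Extraction 10.10.1.1 per the file headers and 10.10 per the submitters' processing notes. They also deposited a table of intensity values, in which every array's processed signals are multiplied by 1 factor (5.708 to 8.773), with column medians of 120.7 to 200.1. No source used here says how the factors were chosen.

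Control spots and spots marked as outliers were left out, log2 of the processed intensity was centred on each array's 75th percentile, and spots of a probe were averaged. RefSeq accessions or symbols named 27248 of 55681 probes. Single-array differences were compared where the brighter array was well above background, as a bound where the dimmer was not. The fit used limma 3.58.1 in R 4.3.3 (lmFit and eBayes, genotype plus population, probes well above background on at least 3 arrays, dimmer values raised to the floor), with Benjamini-Hochberg adjustment, and its code was tested on simulated data. The normexp alternative (offset 50, then quantile normalization) used the median signal in place of the mean signal that had been planned. Members and lists were chosen with earlier results of these data known. Named pathway genes were at most 4 per comparison with the largest measured difference among those called. The number of arrays limits the precision.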

Additional observations from a re-analysis of the deposited data

Results flagged for a closer look

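For 2 probes the genotype difference was past 2-fold in opposite directions in different populations, and the differences between populations were not tested. Wnt5b differed, Satb1-null minus wild type, by -3.64 in HSC and 1.37 in LMPP, with a bound of -2.04 in CLP. The Lrp6 probe A_55_P2118391 differed by -1.0 in HSC, -1.0 in LMPP and 2.16 in CLP, while the other Lrp6 probe went the opposite way in each. The HSC and LMPP differences of A_55_P2118391 sat at the 2-fold threshold. They were under 2-fold in 1 of 5 processing alternatives for HSC and 3 of 5 for LMPP. Each value rests on 1 array per genotype.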

How the results depend on the processing

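The directions of the called single-array member differences held under every centring and signal alternative run, and normexp took Axin2 in CLP to 0.96, Wnt5b in CLP to -0.60, Fzd9 in CLP to 2.04 and Wnt5b in HSC to -1.81. The number of member probes past 2-fold in HSC (2 in all) was 1 under median centring, the mean over probes of a gene or a 3-fold threshold, and 4 with no detection filter. In LMPP (2 in all) the number was 1 with the percentile over detected probes, normexp, the authors' values or the mean over probes, and 0 at 3-fold. In CLP (6 in all) it was 3 with the mean over probes. Pathway probes past 2-fold numbered 18, 16 and 28 in HSC, LMPP and CLP. They were 3, 4 and 14 under normexp and 33, 32 and 43 with no detection filter, and 18 in CLP with the brightest probe per gene. In the fit, 2 pathway probes were called for CLP minus LMPP, against 1 with the percentile over detected probes or the authors' values, 0 without the filter and 5 with the mean over probes. For CLP minus HSC it was 1, against 2 under median centring, 3 under normexp, 0 without the filter, and 4 with the brightest probe or the mean. Of all probes, 2.94% were called for CLP minus LMPP in the main setting and 7.79% of genes with the mean over probes. For CLP minus HSC the share was 2.25%, against 4.47% under median centring and 5.54% under normexp. It was 8.71% with the brightest probe and 7.26% with the mean. Without the filter 0 of all probes were called in either comparison.

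Of 40 member results in the fit, none of them called, 18 changed sign under some alternative and 22 under none. Leaving out 1 array in turn, the lone array left in a population being assumed to vary like the others, moved the genotype difference of Ctnnb1 over -0.09 to 0.17, Lrp5 over -0.24 to 0.17, Lrp6 A_55_P2041360 over -0.60 to 0.27, Lrp6 A_55_P2118391 over -1.0 to 0.58, Tcf7l2 A_55_P2143724 over -0.18 to 0.35 and Wnt10b over -0.63 to 0.28. For LMPP minus HSC the ranges were -0.13 to 0.27 for Ctnnb1, -0.20 to 0.52 for Lrp5, -0.58 to 1.0 for Lrp6 A_55_P2118391, -0.20 to 0.49 for Tcf7l2 A_55_P2143724 and -1.22 to 0.31 for Wnt10b. For CLP minus LMPP they were -1.53 to 0.16 for Lrp6 A_55_P2041360, -2.07 to 1.1 for Lrp6 A_55_P2118391 and -0.72 to 0.81 for Wnt10b. For CLP minus HSC they were -0.04 to 0.15 for Axin1, -1.86 to 1.31 for Lrp6 A_55_P2118391, -1.01 to 0.18 for Wnt10b and -3.17 to 0.13 for Wnt5b, the last positive only without wild type HSC. Fzd9 in CLP minus LMPP was -1.43 without wild type CLP and -5.40 without null CLP.

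Other sign changes lay near 0. With the percentile over detected probes, the genotype difference was 0.0 for Ctnnb1 and -0.04 for Lrp5, LMPP minus HSC was -0.08 for Ctnnb1 and -0.01 for Tcf7l2 A_55_P2143724, CLP minus LMPP was -0.04 for Wnt10b and CLP minus HSC was -0.18 for Axin1. Under normexp, the genotype difference was -0.03 for Lrp6 A_55_P2118391, 0.0 for Wnt10b and Tcf7l2 A_55_P2143724 and -0.06 for Lrp5, LMPP minus HSC was -0.20 for Ctnnb1 and -0.04 for Tcf7l2 A_55_P2143724, and CLP minus HSC was -0.17 for Axin1. With the authors' values, the genotype difference was -0.01 for Lrp5, LMPP minus HSC was -0.10 for Ctnnb1, -0.03 for Tcf7l2 A_55_P2143724 and -0.01 for Lrp5, and CLP minus HSC was -0.13 for Axin1. Under median centring, CLP minus HSC was 0.11 for Lrp6 A_55_P2118391. Except where the alternative itself drops probes or arrays, the cause was not tested. Median centring moved the median of all probes in HSC to 0.18. The slide block was not run, since all arrays share 1 slide and slide row goes with genotype. No paired analysis was possible because each group holds 1 array with no replicate number to share, beyond the population term of the fit, which sets each null array against the wild type array of its population.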
